A study of Rattus norvegicus with 210 samples.

Results

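The preoptic area (POA) of control female rats was compared between postnatal day (PND) 42 and PND22. The comparison took the 5 control POA libraries of either age, which are 10 of the 210 libraries of the series, and the libraries were taken by their labels for tissue, age and treatment. All rats were Sprague-Dawley females whose dams had received the corn oil vehicle by gavage once a day from gestational day 7 until PND22, apart from the day of birth, so the control rats of both ages were all reared by gavaged dams. The other libraries of the series come from rats exposed in the same way to the synthetic estrogen diethylstilbestrol (DES) or the antifungal drug ketoconazole (KTZ), which blocks enzymes of steroidogenesis, and from the mediobasal hypothalamus (MBH), at PND22, PND42 and PND90. Each library is the polyA RNA of one dissected POA, sequenced as stranded read pairs. The rats of the 2 ages are different animals. The labels give no litter, dissection day or sequencing run, so age and any such batch cannot be told apart, and p-values measure only the spread between these libraries.

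The POA lies at the front of the hypothalamus and holds most cell bodies of the neurons that release gonadotropin-releasing hormone (GnRH), the peptide that drives the pituitary and, through it, the ovary. In female rats, PND22 precedes puberty, whereas by PND42 most females have passed vaginal opening. During the same weeks the hypothalamus of the rat is still being myelinated, vessels and extracellular matrix mature, and neurons change their receptors and ion channels. In a bulk sample, fewer cells of a type and less RNA per cell cannot be told apart, and this holds for every difference below.

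Levels are given as CPM, the reads of a gene scaled to a common total of reads counted per library, in the order of replicates 1 to 5. Between 12601314 and 15521703 reads were counted in the PND22 libraries and between 15592294 and 16979710 in the PND42 libraries, so depth was lower in every PND22 library, and its part in the results was not tested. A count of 0 allows up to 3 counts, which is 0.177 to 0.238 CPM, for counting error only. Differences are log2 fold changes of PND42 against PND22 with their standard error (SE) from edgeR's quasi-likelihood test. Adjusted p-values are from that test after Benjamini-Hochberg adjustment over all genes tested, with 0.05 as the threshold below which a gene counts as called.

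Before the comparison, the libraries were checked against genes that mark the regions around the POA. Foxb1, a transcription factor of the mammillary region, was at 2.92, 3.97, 2.37, 11 and 1.74 CPM at PND22 and at 2.37, 1.41, 2.52, 1.24 and 1.74 CPM at PND42. The summed level of the 6 mammillary genes was 50.8 CPM in PND22 replicate 4, between 2.64 and 4.5 CPM in the other PND22 libraries and between 1.92 and 3.26 CPM at PND42. Lmx1b and Foxa1, which belong to that list, were at 2.38 and 2.62 CPM in replicate 4 and at 0 in the other 9 libraries.

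The tuberal list behaved in the same way. Pmch, which encodes melanin-concentrating hormone of the lateral hypothalamus, was at 6.79, 23.8, 1.65, 1400 and 0.387 CPM at PND22 and at 1.92, 2.36, 43.2, 8.18 and 6.08 CPM at PND42. The 11 tuberal genes summed to 1610 CPM in PND22 replicate 4, to between 9.86 and 41.2 CPM in its 4 companions and to between 13.1 and 54.6 CPM at PND42. Tshb and Cga, which encode the subunits of thyrotropin, were at 24.4 and 39.6 CPM in replicate 4 and no higher than 0.449 CPM in any other library of the comparison. Zic1, a transcription factor of the anterior hypothalamus, was low in that library instead, at 12.8 CPM against 56.3 to 69.9 CPM in the other PND22 libraries. The levels of Foxb1 and Pmch in it lay within the range of the MBH, where control libraries at PND22 held 9.31 to 13 CPM of Foxb1, 823 to 1570 CPM of Pmch and 5.47 to 8 CPM of Zic1.

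One PND42 library stood apart in another direction. The 5 thalamic genes summed to 375 CPM in PND42 replicate 3, between 78.2 and 128 CPM in the other PND42 libraries and between 55.5 and 86.5 CPM at PND22. Prkcd, a protein kinase C that marks many thalamic neurons, was at 162 CPM in that library and at 30.3 to 42.6 CPM in its companions. PND22 replicate 2 held the highest level of Gpr17, Tnr, Pdgfra and Mki67 among the PND22 libraries, all genes of the oligodendrocyte lineage or of dividing cells, and PND22 replicate 1 held the lowest summed level of the 13 myelin genes, at 14400 CPM against 18000 to 30000 CPM. All 10 libraries were kept. Values and counts below are from all 10 libraries unless stated, and many are also given without PND22 replicate 4. A further fit without both PND22 replicate 4 and PND42 replicate 3 was chosen after seeing the data.

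**Figure D1:**
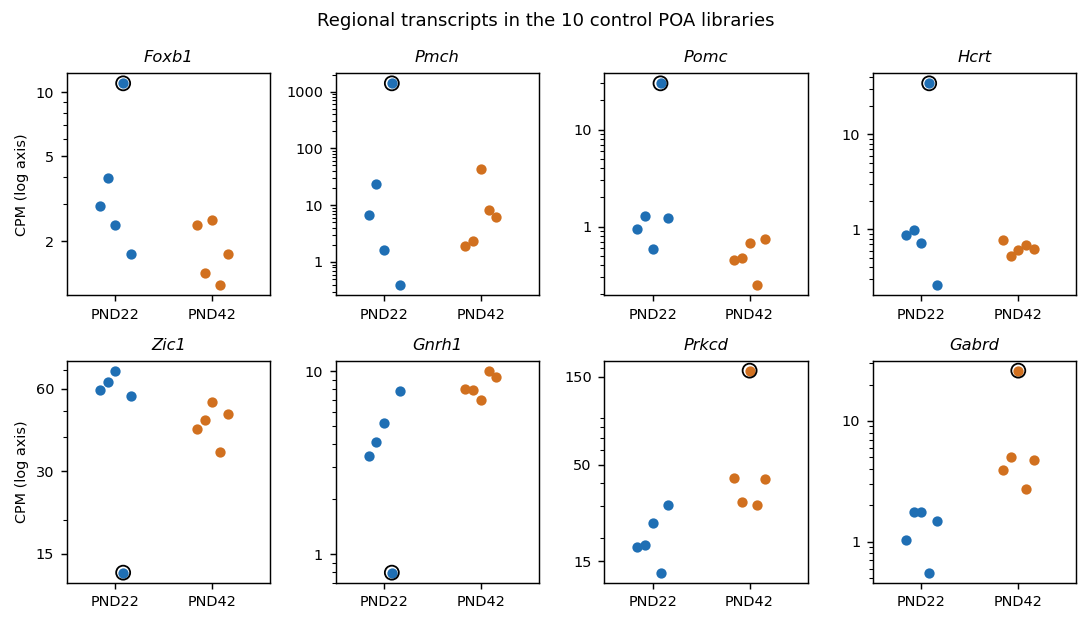
Levels of 8 regional transcripts in the 5 PND22 (blue) and 5 PND42 (orange) control POA libraries, in CPM on log axes, with 1 point per library and rings around PND22 replicate 4 and PND42 replicate 3. PND22 replicate 4 lies above all other libraries for Foxb1, Pmch, Pomc and Hcrt and below them for Zic1 and Gnrh1, and PND42 replicate 3 lies above all others for Prkcd at 162 CPM and Gabrd at 26.1 CPM.

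With all 10 libraries, 3852 of 14350 genes were called (26.8%), 1938 of them higher at PND42 (13.5%) and 1914 lower (13.3%). Most differences were small. The median absolute log2 fold change of the called genes was 0.39, and 94.3% of them differed by less than 2-fold, with 109 genes at least 2-fold higher and 110 at least 2-fold lower. The CPM of the 2 ages did not overlap for 2778 genes (19.4%). The median log2 fold change over all genes tested was 0, against which the medians of the gene lists below are read. The numbers called in each list are read against the shares above, 26.8% called, 13.5% higher and 13.3% lower. A list near or below those shares gives no result about the list by its count.

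Without PND22 replicate 4, 3804 of 14451 genes were called (26.3%), 1893 higher (13.1%) and 1911 lower (13.2%). In all, 3407 genes were called with the same sign in both fits, and 445 of the 3852 were not called or not tested without that library. Of 335 genes in the lists of cell types, regions and functions, 113 were called in both fits, 13 with all libraries alone and 15 without replicate 4 alone. The genes that moved most between the fits were Pmch, Pomc, Hcrt, Hdc, Agrp and Kcnj13. Of genes described below, Plpp2 had a log2 fold change of 1.86 without that library, Thrsp 2.29, Alox15 -2.98, Gpr17 -1.54 and Gfap 0.74. Col4a1 had -1.24, Grin1 -0.42, Dnmt3a -1.03, Cbx7 0.70 and Peg3 -0.46. All of these were called in both fits.

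**Figure D2:**
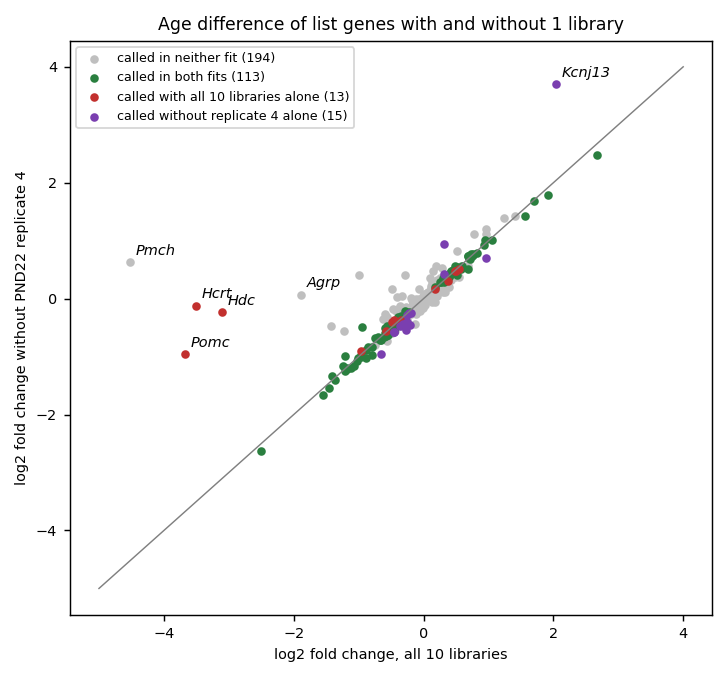
Log2 fold changes of 335 list genes, PND42 against PND22, with all 10 control POA libraries (x axis) and without PND22 replicate 4 (y axis), 1 point per gene, with the line of equal values. The 113 genes called in both fits lie near the line, while Pmch, Pomc, Hcrt, Hdc and Agrp lie far above it, between -4.52 and -1.88 with all libraries and between -0.96 and 0.63 without that library.

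The largest rises included genes of oligodendrocytes and of lipid metabolism, and the GABA receptor subunit gene Gabrd, described below. The 12 highest and 12 lowest genes were taken from those whose CPM did not overlap between the ages. For them non-overlap was thus fixed by the choice and adds no support. Plpp2, a phospholipid phosphatase, was at 1.42, 3.74, 2.18, 2.86 and 3.03 CPM at PND22 and at 9.24, 9.19, 9.41, 8.55 and 10.8 CPM at PND42, a log2 fold change of 1.84 (SE 0.2, adjusted p-value 8e-05). Thrsp, a thyroid hormone-responsive gene of lipid synthesis, went from 1.26, 3.58, 2.97, 2.14 and 1.61 CPM to 8.66, 7.48, 14.6, 13.5 and 13.6 CPM, a log2 fold change of 2.33 (SE 0.28, adjusted p-value 0.00014). Every PND42 library lay above every PND22 library for both genes. Tf, which encodes the iron carrier transferrin and is made in the brain mainly by oligodendrocytes, was at 187, 574, 453, 281 and 360 CPM and then at 1350, 769, 1210, 1130 and 1120 CPM (log2 fold change 1.59, SE 0.25, adjusted p-value 0.00067). Tmem63a, a mechanically gated cation channel of oligodendrocytes, went from 6.31, 9.61, 9.89, 9.28 and 8.18 CPM to 28, 23.8, 25.6, 25.3 and 20.8 CPM, with a log2 fold change of 1.51 (SE 0.12, adjusted p-value 1.5e-05). The lowest PND22 library for Tf was replicate 1, which was also lowest for the summed myelin genes. The remaining large rises that did not rest on one library were C3, the central complement component (1.69, SE 0.2), Nat8f3, an acetyltransferase (1.76, SE 0.21), Coch, a secreted matrix protein (1.68, SE 0.33), and Cryab, a small heat shock protein of glia (1.57, SE 0.21), all with CPM that did not overlap between the ages.

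In 4 of the 12 highest genes, PND42 replicate 3 was the highest library by a wide margin. Gabrd, the delta subunit of the extrasynaptic GABA-A receptor, was at 1.03, 1.75, 1.78, 0.555 and 1.48 CPM at PND22 and at 3.91, 5.01, 26.1, 2.73 and 4.71 CPM at PND42 (log2 fold change 2.67, SE 0.63, adjusted p-value 0.0076). Its lowest PND42 library was above its highest PND22 library, as the choice of genes required. Without both libraries named above the log2 fold change was 1.42 (adjusted p-value 0.0033). Ptpn3, a protein tyrosine phosphatase, went from 8.84, 10.1, 7.05, 7.78 and 5.41 CPM to 18.9, 12.6, 143, 14.3 and 40.2 CPM, with 2.56 (SE 0.63, adjusted p-value 0.0094) in all libraries and 1.47 (adjusted p-value 0.012) without those 2. For Rab37, a small GTPase of vesicle traffic, the corresponding values were 1.86 (adjusted p-value 0.019) and 1.01 (adjusted p-value 0.024), and for Slc17a7, the vesicular glutamate transporter of cortical and thalamic neurons, 1.91 (adjusted p-value 0.0032) and 1.39 (adjusted p-value 0.0094). The 5 thalamic marker genes moved with these values in PND42 replicate 3, as given above. Of that list, Prkcd (1.56) and Ramp3 (1.70) were called with all libraries, and they were also called at 0.68 (adjusted p-value 0.019) and 1.01 (adjusted p-value 0.034) without the 2 libraries. Prkcd alone had an adjusted p-value of 0.05 without PND22 replicate 1.

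The largest falls included lipid enzymes, collagens and genes of low level. Alox15, a lipoxygenase that makes lipid mediators from arachidonic acid, was at 28.6, 63.1, 61.2, 30.8 and 31.4 CPM at PND22 and at 4.55, 8.54, 5.91, 6.38 and 3.72 CPM at PND42 (log2 fold change -2.88, SE 0.28, adjusted p-value 3.7e-05). Pnlip, a triglyceride lipase best known from the pancreas, went from 43.9, 78.2, 61, 35.7 and 45.3 CPM to 19.9, 16.5, 15.4, 15.9 and 19.8 CPM (-1.59, SE 0.18, adjusted p-value 0.00012). Casr, the calcium-sensing receptor, went from 11.3, 25, 15.4, 10.3 and 12.4 CPM to 5.19, 5.42, 5.35, 4.34 and 4.46 CPM (-1.58, SE 0.22, adjusted p-value 0.00035). The ages did not overlap for any of the 3 genes, as the choice of genes required, and for Alox15 and Pnlip PND22 replicates 2 and 3 were the highest. Col20a1, a collagen of the fibril-associated kind, fell by 1.68 (SE 0.15), and Col7a1, the collagen of anchoring fibrils, fell by 1.59 (SE 0.29). Ccdc155, known from meiotic chromosome movement, Hif3a, a hypoxia-inducible factor subunit, Moap1, a modulator of apoptosis, and Zfp580, a zinc finger gene, fell by 1.51, 1.59, 1.5 and 1.45 on the log2 scale at levels of at most 5.34 CPM in any library. For these low genes the SE was 0.23 to 0.45.

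**Figure D3:**
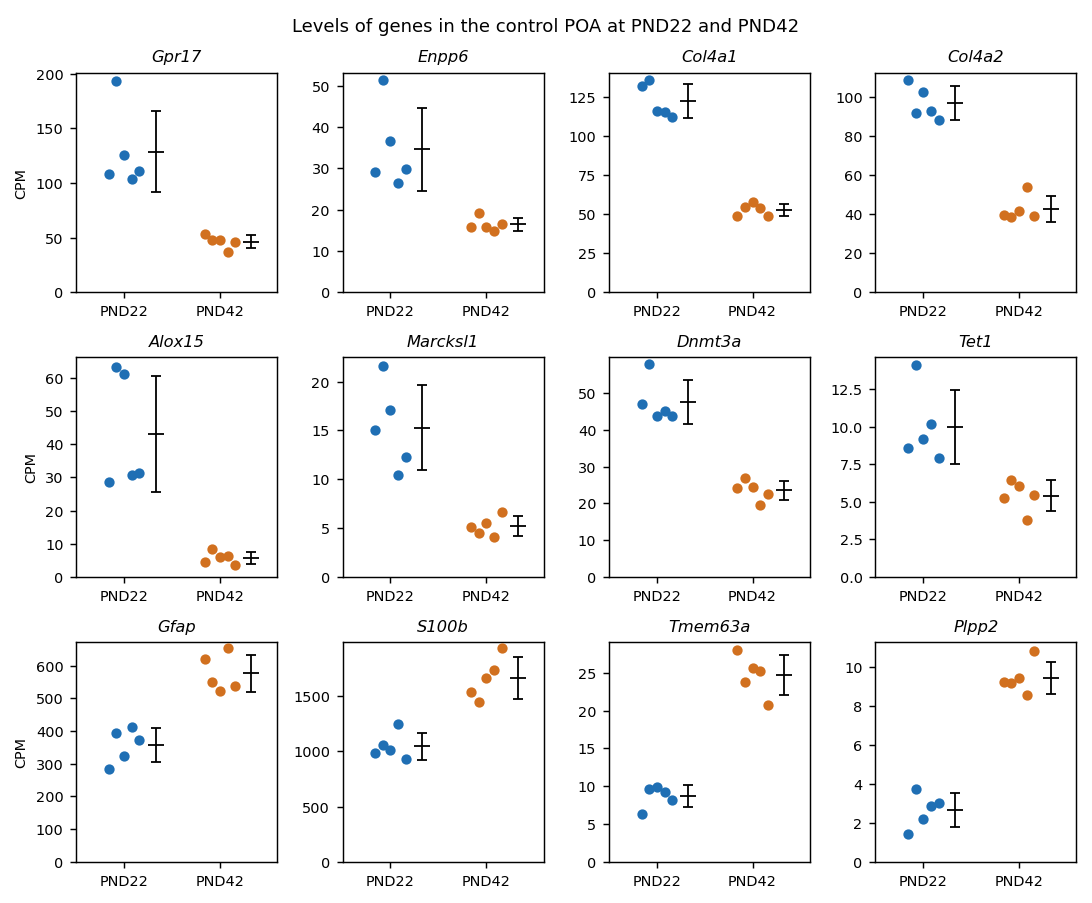
Levels in CPM of 12 called genes in the 5 PND22 (blue) and 5 PND42 (orange) control POA libraries, 1 point per library in the order of replicates, with the mean and SD (n = 5) beside them and axes that start at 0. The ages do not overlap for any of the 12 genes, and PND22 replicate 2 is the highest PND22 library for Gpr17 at 193 CPM and Dnmt3a at 57.7 CPM. Non-overlap was a condition of choice for Gpr17, Alox15, Marcksl1, Tmem63a and Plpp2.

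Genes of the glial lineages moved in opposite directions. Of 8 tested genes of oligodendrocyte precursors and newly formed oligodendrocytes, 6 fell and none rose, with a median log2 fold change of -0.75. Gpr17, a receptor of newly committed oligodendrocytes, was at 108, 193, 126, 104 and 111 CPM and then at 53, 48.2, 48, 36.9 and 45.9 CPM (-1.46, SE 0.16, adjusted p-value 7.9e-05). Enpp6, a choline phosphodiesterase of newly forming oligodendrocytes, went from 29.2, 51.3, 36.6, 26.4 and 29.8 CPM to 15.9, 19.1, 15.9, 14.8 and 16.6 CPM (-1.07, SE 0.16, adjusted p-value 0.00052). Nkx2-2, a transcription factor of the lineage (-1.24, SE 0.24), Bmp4 (-0.80, SE 0.25), C1ql1 (-0.70, SE 0.1) and Cspg4, the proteoglycan NG2 of the precursors (-0.45, SE 0.11), fell as well. The call of Bmp4 was lost without any one of PND22 replicates 1, 2 and 5 and PND42 replicates 1, 4 and 5 (adjusted p-values 0.062 to 0.082). Pdgfra, the growth factor receptor that defines the precursors, was at 142 to 218 CPM at PND22 and at 125 to 155 CPM at PND42 and was not called (-0.28, SE 0.1, adjusted p-value 0.061). PND22 replicate 2 was the highest PND22 library for Gpr17, Enpp6 and Pdgfra.

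Of 13 genes of myelinating oligodendrocytes, 2 rose and 1 fell, with a median of 0.22. The called share was near the 26.8% of all genes tested. Ermn, a cytoskeletal protein of myelinating cells, went from 64.9, 115, 91.2, 83.1 and 86.7 CPM to 175, 168, 152, 122 and 159 CPM (0.82, SE 0.13, adjusted p-value 0.00075), and Opalin, a transmembrane glycoprotein of central myelin, rose by 0.71 (SE 0.12, adjusted p-value 0.0014). Mag, the myelin-associated glycoprotein, fell by 0.46 (SE 0.16, adjusted p-value 0.047), a call that was lost on leaving out any single library other than PND22 replicate 1 or 4. Mbp, which encodes a main structural protein of myelin, was not called. It was at 5060, 10900, 9820, 6740 and 7140 CPM at PND22 and at 8690, 8310, 8810, 8870 and 11100 CPM at PND42 (0.22, SE 0.17, adjusted p-value 0.38). Mog, a surface glycoprotein of myelin, was at 140, 267, 226, 139 and 180 CPM and then at 277, 273, 244, 249 and 236 CPM (0.43, SE 0.16, adjusted p-value 0.058). The PND22 libraries spread over a wider range than the PND42 libraries for both genes, with replicate 2 highest.

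Astrocytic genes were higher at PND42, 6 of 12 called in that direction and none in the other, with a median of 0.22. Gfap, the intermediate filament of astrocytes, was at 285, 395, 325, 412 and 372 CPM and then at 621, 551, 522, 654 and 539 CPM (0.69, SE 0.1, adjusted p-value 0.00037). S100b, a calcium-binding protein of astrocytes and some oligodendrocytes, went from 983, 1060, 1010, 1250 and 934 CPM to 1540, 1450, 1670, 1740 and 1940 CPM (0.68, SE 0.09, adjusted p-value 0.00029). The ages did not overlap for either gene. The folate enzyme Aldh1l1 (0.46), the glycolytic enzyme Aldoc (0.45) and the glutamate transporter Slc1a3 (0.26) rose less, and Aqp4, the water channel of astrocytic endfeet, was level at 0.00 (SE 0.09).

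Of 12 microglial genes, 5 rose and none fell, with a median of 0.20. Csf1r, the receptor on which microglia depend, was at 103, 122, 109, 117 and 89.4 CPM and then at 134, 132, 125, 132 and 126 CPM (0.27, SE 0.07, adjusted p-value 0.014), with no overlap between the ages. Aif1, Trem2 and Tyrobp rose by 0.60, 0.50 and 0.41, and of the 5 genes 4 remained called without PND22 replicate 4, where Trem2 was lost, and 2, among them Csf1r, without both libraries. On leaving out single libraries, Trem2 was still called without PND22 replicate 5 or PND42 replicate 2 or 4 and was lost without any of the others (adjusted p-values 0.066 to 0.13), and Tyrobp was lost without any one of PND22 replicates 1 and 5 and PND42 replicates 3, 4 and 5 (adjusted p-values 0.068 to 0.08). Cx3cr1 and P2ry12, genes of surveying microglia, were not called at -0.22 (SE 0.13) and -0.16 (SE 0.09).

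Among genes of vessels and extracellular matrix, the collagen IV genes Col4a1 and Col4a2 fell. Of the other collagen IV chains, Col4a3 (-0.36) and Col4a4 (-0.34) were not called. Col4a5 (-0.39, adjusted p-value 0.037) and Col4a6 (-0.50, adjusted p-value 0.04) were not called without PND22 replicate 4 (adjusted p-values 0.076 and 0.087). Col4a1 and Col4a2 encode the chains of the main collagen IV of vascular basement membranes and are neighbours transcribed in opposite directions from a shared promoter. In the RefSeq annotation of the assembly GRCr8 their starts are 77 bases apart. The 76 bases between them, chr16:84885521-84885596, are shown on the plus strand because both members of the pair fell by nearly the same amount, with capitals for the letters GGGCGG read on the other strand. These 6 letters, on either strand, occur in the 76 bases before the start of 18.1% of 33469 RefSeq promoter windows, and the letters CCAAT, which occur in 13% of them, are not in this stretch. A match describes the sequence and is not a binding site.
Col4a2-Col4a1: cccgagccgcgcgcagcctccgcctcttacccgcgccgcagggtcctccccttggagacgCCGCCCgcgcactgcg

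Col4a1 was at 132, 136, 116, 115 and 112 CPM at PND22 and at 48.8, 54.7, 57.5, 53.7 and 48.7 CPM at PND42, a log2 fold change of -1.21 (SE 0.07, adjusted p-value 1.5e-06). Col4a2, across the 76 bases from it, was at 109, 92.1, 103, 93.2 and 88.4 CPM and then at 39.6, 38.6, 41.6, 54.2 and 39.3 CPM, a log2 fold change of -1.18 (SE 0.1, adjusted p-value 1.5e-05). The spread within either age was small beside the difference, and only PND42 replicate 4 stood off, for Col4a2. Of the 13 collagen and fibrillar matrix genes tested, 4 fell and none rose, with a median of -0.33. The other called members were Col11a1, a minor fibrillar collagen (-0.85, SE 0.17), and Col5a2 (-0.28), whereas Col1a1, the main fibrillar collagen of meninges and large vessels, ranged from 18.6 to 64.2 CPM at PND22 and from 7.44 to 43 CPM at PND42 without a call (-0.33, SE 0.4).

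Endothelial and mural genes were split, with 4 higher and 3 lower of 10 tested and a median of -0.10. Without PND22 replicate 4, 4 were higher and 2 lower. Slco1a4, an organic anion transporter of the blood-brain barrier, was at 34.8, 40.6, 45.7, 42.9 and 37.4 CPM and then at 69.3, 66.9, 68.8, 69.9 and 64 CPM (0.76, SE 0.07, adjusted p-value 3.4e-05), and Flt1, a receptor for vascular endothelial growth factor, rose by 0.32 (SE 0.09). Acta2, the actin of smooth muscle, rose by 0.76 (SE 0.21), and Rgs5, a marker of pericytes, went from between 43.9 and 52.4 CPM to between 24.7 and 35.6 CPM (-0.59, SE 0.1, adjusted p-value 0.0012). Without both libraries 2 genes of the list remained higher and 2 lower, as Flt1 and Acta2 then had adjusted p-values of 0.075 and 0.054, and Flt1 had 0.051 without PND22 replicate 5. Cldn5, the tight junction protein, was not called (-0.07, SE 0.11). Of 12 genes of the perineuronal net and brain matrix, 1 rose and 4 fell, with a median of -0.13. Hapln2, the link protein at nodes of Ranvier, rose from between 7.55 and 13.4 CPM to between 18.9 and 23.3 CPM (1.05, SE 0.16, adjusted p-value 0.00058). Tnr, the tenascin made by oligodendroglia, and Ncan, the proteoglycan neurocan, fell by 0.80 (SE 0.17) and 0.36 (SE 0.09), while Acan, the aggrecan of perineuronal nets, was level (-0.02, SE 0.1). Without both libraries 2 of the 4 falls were still called, those of Tnr and Ncan.

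**Figure D4:**
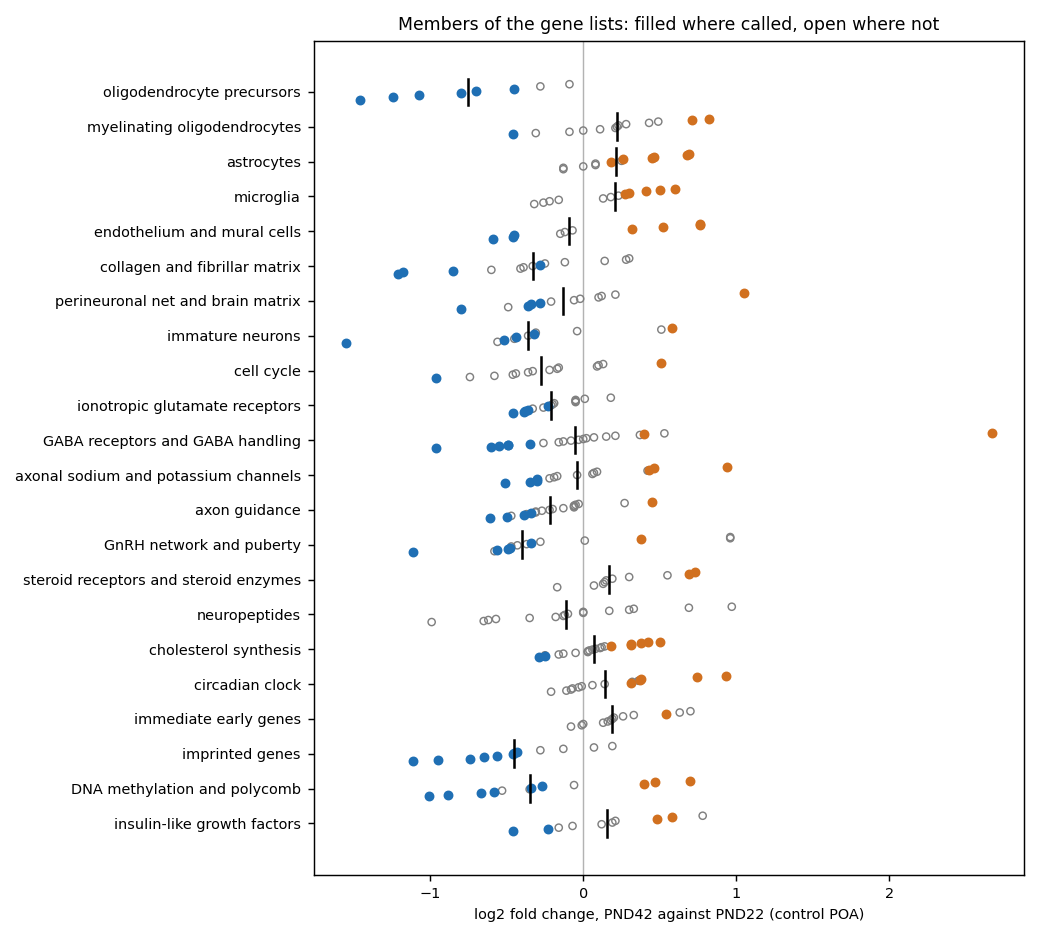
Log2 fold changes of PND42 against PND22 in the control POA for the tested members of 22 gene lists, 1 point per gene, filled where called (orange higher, blue lower) and open where not, with a vertical bar at the median of each list. The medians run from -0.75 for oligodendrocyte precursors to 0.22 for myelinating oligodendrocytes and astrocytes, beside 0 for all genes tested.

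Among neuronal genes, markers of immature neurons were mostly lower or uncalled, with 1 higher and 4 lower of 11 and a median of -0.36. Without PND22 replicate 4, 1 was higher and 5 were lower. Marcksl1, an actin regulator of growing neurites, was at 15.1, 21.6, 17.1, 10.4 and 12.3 CPM and then at 5.13, 4.53, 5.54, 4.09 and 6.7 CPM (-1.55, SE 0.2, adjusted p-value 0.00021). Dcx, the microtubule protein of migrating neurons, went from 87.6, 87.8, 74.5, 76 and 76.6 CPM to 64.4, 64.1, 51.5, 48.8 and 51 CPM (-0.52, SE 0.08, adjusted p-value 0.00085). Stmn1, a tubulin-binding protein, moved against the rest of the list, from between 356 and 388 CPM to between 509 and 585 CPM (0.58, SE 0.05, adjusted p-value 2.4e-05). Of 14 cell cycle genes, Top2a fell by 0.96 (SE 0.27, adjusted p-value 0.018) and Pcna, the DNA clamp also used in repair, rose by 0.51 (SE 0.08, adjusted p-value 6e-04), while Mki67 was not called at 2.97 to 7.7 CPM against 2.42 to 3.66 CPM. The fall of Top2a was lost without both libraries (adjusted p-value 0.051). The called share of the cell cycle list lay below the 26.8% of all genes tested.

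Of 15 ionotropic glutamate receptor genes, 5 fell and none rose, with a median of -0.21. Without PND22 replicate 4, 6 fell. Grin1, the obligatory subunit of NMDA receptors, was at 552, 452, 495, 458 and 500 CPM and then at 361, 369, 400, 380 and 352 CPM (-0.39, SE 0.06, adjusted p-value 0.00056). Grik5, a kainate receptor subunit, went from 148, 142, 135, 129 and 140 CPM to 91.1, 103, 97, 111 and 101 CPM (-0.46, SE 0.06, adjusted p-value 0.00028), and Grin2d, an NMDA receptor subunit prominent in early life, fell by 0.38 (SE 0.1). The ages did not overlap for Grin1 or Grik5, and Grin2b was not called (-0.26, SE 0.19).

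GABA genes moved both ways, with 2 higher and 6 lower of 20 and a median of -0.06. Gabre, the epsilon subunit found in the hypothalamus, was at 89.5, 81.9, 65, 69.3 and 79.6 CPM and then at 36.8, 52.2, 30.4, 39.7 and 38.9 CPM (-0.96, SE 0.12, adjusted p-value 0.00024). Gabrq, the theta subunit that neighbours it on the X chromosome, fell by 0.60 (SE 0.14). Besides Gabrd, the member that rose was Slc12a2, the chloride importer NKCC1, from between 119 and 181 CPM to between 180 and 223 CPM (0.40, SE 0.1, adjusted p-value 0.011). Gad1, the enzyme that makes GABA, was not called (0.37, SE 0.15, adjusted p-value 0.074).

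Among 15 axonal sodium and potassium channel genes, 3 rose and 4 fell, with a median of -0.04. Without PND22 replicate 4, 3 rose and 5 fell. Scn4b, an auxiliary sodium channel subunit, was at 9.7, 6.33, 13.3, 15.4 and 18 CPM and then at 24.3, 29.3, 27.4, 20 and 19.6 CPM (0.94, SE 0.22, adjusted p-value 0.0085), and the auxiliary potassium channel subunit Kcnab1 rose by 0.46 (SE 0.12). Scn3a, the sodium channel of the embryonic and newborn brain, went from between 108 and 134 CPM to between 69.9 and 97.2 CPM (-0.51, SE 0.08, adjusted p-value 0.00063), and Scn2a fell by 0.30 (SE 0.07). Of 19 axon guidance genes, 1 rose and 4 fell, with a median of -0.22. The called share was near the 26.8% of all genes tested. Without PND22 replicate 4, 1 rose and 5 fell. Dcc, the netrin receptor, fell by 0.61 (SE 0.14), the ephrin Efna5 by 0.50 (SE 0.14), the slit receptor Robo2 by 0.39 (SE 0.09) and the semaphorin co-receptor Plxna1 by 0.34 (SE 0.06). Sema7a, a membrane-anchored semaphorin, rose by 0.45 (SE 0.12) and was not called without both libraries (adjusted p-value 0.068).

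Gnrh1 itself was at 3.47, 4.12, 5.21, 0.794 and 7.86 CPM at PND22 and at 8.02, 7.95, 7.01, 10.1 and 9.3 CPM at PND42. With all libraries it was not called (log2 fold change 0.96, SE 0.36, adjusted p-value 0.062), and without PND22 replicate 4, its lowest library, it was called at 0.70 (adjusted p-value 0.034). The ages overlapped through PND22 replicate 5, which lay above PND42 replicate 3.

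Of the 14 tested genes of the GnRH network and of puberty, 1 rose and 5 fell, with a median of -0.40. Without both libraries Gnrh1 was called higher and 3 genes were called lower, Mkrn3 and Dlk1 among them. Mkrn3, an imprinted gene whose loss causes precocious puberty in humans, was at 2.6, 3.36, 3.63, 2.62 and 4.38 CPM and then at 2.05, 1.18, 1.11, 1.8 and 1.55 CPM (-1.11, SE 0.23, adjusted p-value 0.0041). Dlk1, another imprinted gene with that role, went from 65.2, 50.6, 50.3, 70.8 and 46.3 CPM to 36.5, 46.3, 36.7, 31 and 40.9 CPM (-0.56, SE 0.13, adjusted p-value 0.0067). Mkrn3 did not overlap between the ages, and for Dlk1 the highest PND42 library equalled the lowest PND22 library at 46.3 CPM.

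Kiss1r, the kisspeptin receptor carried by GnRH neurons, was at 4.26, 3.97, 4.28, 4.76 and 3.93 CPM and then at 3.33, 2.47, 2.95, 3.16 and 3.1 CPM (-0.49, SE 0.14, adjusted p-value 0.024). Without both libraries its adjusted p-value was 0.077, and without PND42 replicate 2 it was 0.055. Tac3, which encodes neurokinin B, rose by 0.38 (SE 0.13, adjusted p-value 0.043), and Igsf10 and Irf2bpl fell by 0.48 (SE 0.15) and 0.34 (SE 0.1). The call of Tac3 was lost on leaving out any single library other than PND22 replicate 5 or PND42 replicate 1 (adjusted p-values 0.056 to 0.099), that of Igsf10 without any one of PND22 replicates 2 and 4 and PND42 replicates 3, 4 and 5 (0.059 to 0.066), and that of Irf2bpl without PND22 replicate 2 or 3 or PND42 replicate 1 (0.055 to 0.063). Kiss1 was between 0.229 and 1.89 CPM at PND22 and between 0.449 and 3.04 CPM at PND42 and was not called.

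Of the steroid receptors, Esr1 (0.13, SE 0.23) and Pgr (0.14, SE 0.14) were not called. Without PND22 replicate 4, Esr1 was at -0.04 (SE 0.18). In the POA of exposed rats, described below, Esr1 was called lower (-0.56, SE 0.1, adjusted p-value 1.1e-06). It was also called lower in the control MBH (-0.49, SE 0.13, adjusted p-value 0.028), while Pgr was called in neither. Of the 10 genes of steroid receptors and enzymes, 2 rose, with a median of 0.17. The called share of the list lay below the 26.8% of all genes tested. Hsd11b1, which regenerates active glucocorticoid, was at 8.6, 14.7, 11.9, 12.9 and 9.08 CPM and then at 18.2, 17.1, 22.8, 18.2 and 18.2 CPM (0.73, SE 0.15, adjusted p-value 0.0029). Cyp19a1, the aromatase that makes estradiol from testosterone, went from 2.6, 2.75, 2.37, 1.11 and 3.09 CPM to 4.1, 4.42, 3.08, 4.34 and 3.41 CPM (0.69, SE 0.23, adjusted p-value 0.043), with adjusted p-values of 0.053 to 0.088 on leaving out PND22 replicate 1, 2 or 3 or PND42 replicate 1, 2, 4 or 5. Hsd11b1 did not overlap between the ages, and Cyp19a1 overlapped by one library.

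None of the 16 neuropeptide genes tested was called by edgeR with all libraries, with a median of -0.11, and 1 of them, Ucn3, fell without PND22 replicate 4 (-0.95, adjusted p-value 0.037). With all libraries 4 of the 16 had an unadjusted p-value under 0.05 and DESeq2 called 1. Oxt, which encodes oxytocin, was at 210, 198, 142, 8.33 and 70.5 CPM at PND22 and at 111, 40.5, 155, 86.7 and 178 CPM at PND42 (-0.13, SE 0.57, adjusted p-value 0.89). Avp, which encodes vasopressin, ranged from 17.8 to 99.6 CPM at PND22 and from 21.9 to 98.1 CPM at PND42. The libraries of one age thus differed more than the ages did, for Oxt at PND22 in part through replicate 4. Without that library the log2 fold change of Oxt was -0.43 (SE 0.37, adjusted p-value 0.42). Gal, which encodes galanin of preoptic neurons, was steadier, at 26.6 to 43.1 CPM and 29.7 to 43.3 CPM (0.00, SE 0.14).

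Imprinted genes, which are expressed from one parental allele and many of which act in growth and hypothalamic development, were lower at PND42, with 8 of 12 called lower, none higher and a median of -0.45. The 8 calls held without PND22 replicate 4 and without both libraries. Peg3, an abundant zinc finger gene, was at 3690, 3120, 2770, 3120 and 3000 CPM and then at 2410, 2530, 2170, 2090 and 2210 CPM (-0.46, SE 0.07, adjusted p-value 0.00072). Zdbf2 went from 254, 237, 161, 166 and 169 CPM to 129, 155, 111, 104 and 125 CPM (-0.65, SE 0.14, adjusted p-value 0.0042), and Grb10, an adaptor that restrains insulin receptor signalling, from 338, 310, 285, 282 and 294 CPM to 227, 253, 206, 209 and 221 CPM (-0.43, SE 0.06, adjusted p-value 5e-04). The ages did not overlap for these 3 genes. Magel2, a gene of the Prader-Willi region, fell by 0.45 (SE 0.1) and Cdkn1c, a cell cycle inhibitor, by 0.74 (SE 0.17). Plagl1, a zinc finger factor that regulates other imprinted genes, fell by 0.95 (SE 0.3) with PND22 replicate 4 at 73.6 CPM and its companions at 21.4 to 33.5 CPM, and by 0.49 without that library (adjusted p-value 0.021). Its call was lost without PND22 replicate 1 or PND42 replicate 1, 3, 4 or 5 (adjusted p-values 0.054 to 0.069). Ndn, the neighbour of Magel2, was not called at 0.07 (SE 0.05), nor was Nnat at -0.13 (SE 0.06).

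Of 12 genes that write or read DNA methylation or polycomb marks, 6 fell and 3 rose, with a median of -0.34. Dnmt3a, the methyltransferase that sets new methylation in postnatal neurons, was at 47.1, 57.7, 43.8, 45.2 and 43.7 CPM and then at 24.1, 26.8, 24.5, 19.5 and 22.6 CPM (-1.01, SE 0.1, adjusted p-value 3.2e-05). The oxidases that remove methylation fell too, Tet1 by 0.88 (SE 0.18), Tet3 by 0.67 (SE 0.12) and Tet2 by 0.34 (SE 0.07). The polycomb genes that rose were Cbx7, from 44.1, 32.5, 50.8, 45.9 and 50.2 CPM to 72.5, 70.7, 65.4, 75.3 and 78.2 CPM (0.70, SE 0.11, adjusted p-value 0.00064), Ezh1 (0.47, SE 0.06) and Eed (0.40, SE 0.1). Ezh2, the methyltransferase of dividing cells, was not called (-0.35, SE 0.17).

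Circadian genes were called in one direction, 5 of 15 higher at PND42 and none lower, with a median of 0.14. Without PND22 replicate 4 the number was 6. In the molecular clock the proteins CLOCK and BMAL1 (gene Arntl) bind the letters CACGTG, called an E-box, in front of output genes, and PER and CRY proteins inhibit them. Of 13 clock genes with any RefSeq window of 250 bases before the start, 5 held these letters in a window. Counted by window and not by gene, the share was 5.59% of 33469 windows of that length. Among the 5 genes that rose, Ciart and Tef held them while Dbp, Nr1d2 and Cry2 did not. Nr1d1, Bhlhe40 and Bhlhe41, which were not called, held them too. No match says only that the letters are not in this window. The windows of Ciart, chr2:186112247-186112496 on the minus strand, and Tef, chr7:115206577-115206826 on the plus strand, both of GRCr8, are shown 5′ to 3′ with CACGTG in capitals because these are the members that both rose and hold the letters, which read the same on either strand.
Ciart: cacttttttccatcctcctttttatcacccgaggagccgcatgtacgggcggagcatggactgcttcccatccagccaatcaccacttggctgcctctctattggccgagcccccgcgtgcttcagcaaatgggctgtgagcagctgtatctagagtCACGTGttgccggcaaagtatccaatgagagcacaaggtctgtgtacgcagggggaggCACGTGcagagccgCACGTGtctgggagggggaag
Tef: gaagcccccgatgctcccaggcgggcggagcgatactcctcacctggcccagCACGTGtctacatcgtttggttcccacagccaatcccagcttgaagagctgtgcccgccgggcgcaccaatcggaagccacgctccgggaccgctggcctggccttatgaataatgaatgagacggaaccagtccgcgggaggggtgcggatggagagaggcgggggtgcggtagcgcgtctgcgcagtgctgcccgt

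Ciart, a repressor of the clock with 3 copies of CACGTG in its window, was at 5.92, 5.11, 5.8, 5.79 and 6.25 CPM at PND22 and at 9.43, 9.36, 12, 12.5 and 11.6 CPM at PND42 (0.93, SE 0.12, adjusted p-value 0.00027). Dbp, a transcription factor with a strong daily rhythm, went from 62, 67, 61.1, 62.8 and 60.9 CPM to 98.8, 84.7, 125, 96.9 and 118 CPM (0.74, SE 0.1, adjusted p-value 0.00021). Tef, its relative with 1 copy of CACGTG, went from 219, 246, 221, 256 and 243 CPM to 295, 306, 304, 311 and 313 CPM (0.37, SE 0.05, adjusted p-value 0.00045). The ages did not overlap for any of the 3, nor for Nr1d2 (0.38, SE 0.06) and Cry2 (0.31, SE 0.06), which encode repressors. The core genes Arntl (-0.21, SE 0.1), Clock (-0.03, SE 0.06), Per1 (0.06, SE 0.15) and Per2 (-0.11, SE 0.16) were not called. The time of day of the dissections is not in the labels, so age and time of day cannot be told apart.

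Of 13 immediate early genes, which neurons switch on within minutes of activity, 1 was called with all libraries, Arc (0.54, SE 0.17, adjusted p-value 0.03), and none without PND22 replicate 4, where Arc had an adjusted p-value of 0.053, 1 gene had an unadjusted p-value under 0.05 and DESeq2 called 1. It had 0.065 to 0.082 without PND22 replicate 1 or 2 or PND42 replicate 2 or 5. The summed level of the 13 genes was 116, 113, 210, 112 and 210 CPM at PND22 and 118, 237, 133, 190 and 262 CPM at PND42. High and low libraries occurred at both ages. Fos followed the sums, at 11.2 to 31.1 CPM and 11.7 to 35.9 CPM (0.18, SE 0.35).

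Of 20 cholesterol synthesis genes, 6 rose and 2 fell, with a median of 0.07. Without PND22 replicate 4, 5 rose and 3 fell. Msmo1, an oxidase late in the pathway, was at 101, 128, 123, 118 and 120 CPM and then at 176, 166, 158, 173 and 160 CPM (0.50, SE 0.06, adjusted p-value 0.00021), and Fdft1, which makes squalene, and Insig1, a feedback regulator, rose by 0.42 (SE 0.07) and 0.38 (SE 0.07). Sqle, which oxidizes squalene, fell by 0.25 (SE 0.06) and was the only member still called lower without both libraries. Of 10 genes of insulin-like growth factor signalling, 2 rose and 2 fell, with a median of 0.16. Igfbp5, an abundant binding protein, went from 263, 306, 205, 191 and 193 CPM to 356, 346, 395, 283 and 348 CPM (0.58, SE 0.13, adjusted p-value 0.0049), Igfbp4 rose by 0.48 (SE 0.16), and Ghr, the growth hormone receptor, fell by 0.46 (SE 0.12). The call of Igfbp4 was lost on leaving out any one library other than PND22 replicate 4 and PND42 replicate 1. Igf1 was not called (0.12, SE 0.2).

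Of 5 genes of blood tested, 4 fell, with a median of -1.18, and 3 were called lower without both libraries. The summed level of the list was 693, 1570, 1180, 939 and 792 CPM at PND22 and 389, 863, 635, 522 and 426 CPM at PND42, with replicate 2 highest at both ages. The sums overlapped, as PND42 replicate 2 lay above PND22 replicates 1 and 5. Slc4a1, the anion exchanger of red cells, was at 4.58, 9, 8.9, 3.97 and 2.9 CPM and then at 1.03, 1, 1.54, 0.744 and 0.806 CPM (-2.51, SE 0.35, adjusted p-value 0.00035). Hba-a2 and Hba-a1, the near-identical genes of alpha globin, fell by 1.37 (SE 0.24) and 1.18 (SE 0.24), and Hbb, a beta globin gene, was at 175 to 415 CPM and 167 to 376 CPM (-0.14, SE 0.24). The part of blood in other falls was not tested.

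Genes of neighbouring regions were called in part through PND22 replicate 4. Of 9 tuberal genes tested, 4 were called lower with all libraries, and only Fezf1 without replicate 4 (-1.21 with all libraries, adjusted p-value 0.013, and -0.99 without, adjusted p-value 0.028). Pomc, which encodes the precursor of melanocortins, was at 30 CPM in replicate 4 and at 0.248 to 1.3 CPM in the other 9 libraries, with -3.67 (adjusted p-value 0.027) with it and -0.96 (adjusted p-value 0.072) without it. Hcrt, which encodes orexin, and Hdc, which makes histamine, went from -3.50 (adjusted p-value 0.046) and -3.10 (adjusted p-value 0.045) to -0.12 (adjusted p-value 0.83) and -0.23 (adjusted p-value 0.59). Of the 7 preoptic and anterior genes, 3 were called lower with all libraries, and 4 lower and 1 higher without replicate 4. Zic1, whose PND42 libraries held 35.3 to 53.5 CPM, was -0.21 (adjusted p-value 0.66) with replicate 4 and -0.46 (adjusted p-value 0.011) without it, and Six6, a transcription factor of the anterior hypothalamus and pituitary, fell by 1.41 (SE 0.4, adjusted p-value 0.02), or 0.057 without PND22 replicate 1. Of the 7 genes of choroid plexus and ependyma none was called, and without replicate 4 the potassium channel Kcnj13 of the choroid plexus was called higher (adjusted p-value 0.0031), at 0 to 1.43 CPM at PND22 and 0.31 to 2.65 CPM at PND42. With all libraries 2 of the 7 had an unadjusted p-value under 0.05 in edgeR, and DESeq2 called 2. Lhb, the 1 pituitary gene tested, fell by 0.58 (SE 0.19, adjusted p-value 0.039) and was not called without replicate 4 (adjusted p-value 0.063) or without PND22 replicate 1 or 2 or PND42 replicate 1, 3 or 5 (0.054 to 0.089). The 3 cortical and 6 striatal genes gave 1 rise, that of Slc17a7, and 1 rise and 1 fall, the fall being that of Rgs9 (-0.43, adjusted p-value 0.0073).

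The same ages were compared in POA libraries that the control comparison did not use, 30 of exposed rats at PND42 against 30 at PND22. There, 10467 of 15420 genes were called (67.9%), 5199 higher (33.7%) and 5268 lower (34.2%). Of the 3852 genes called in control rats, 3621 (94%) had the same sign in exposed rats, beside 76.5% of all 14350 genes tested in both, 3265 were called with that sign, and 68 were called with the opposite sign. The summed mammillary level of the 60 exposed libraries had a median of 2.7 CPM and reached 27.2 CPM in one of them, beside 50.8 CPM in PND22 replicate 4 of the control rats. Single exposed libraries stood apart for other regions too, and the medians of Prkcd and Pmch differed between the ages. At PND42 Prkcd had a median of 55.3 CPM and reached 678 CPM, Pmch 1.67 and 869 CPM. Pomc had 0.98 and 36.1 CPM there and Hcrt 0.665 and 32.6 CPM. At PND22 the corresponding values were 19.4 and 37.3, 14.6 and 140, 0.761 and 1.73, and 0.853 and 7.77 CPM. Pmch exceeded 10 CPM in 17 of 30 exposed libraries at PND22 and in 2 of 30 at PND42. It was called lower at PND42 in exposed rats (-2.3, SE 0.59, adjusted p-value 0.00053). All 60 libraries were kept, and the part of such libraries in the exposed comparison was not tested. The falls of Col4a1 (-1.08), Gpr17 (-1.14) and Alox15 (-2.65) and the rises of Tmem63a (2.01), Plpp2 (1.69) and Tf (1.74) had similar sizes there. Gnrh1 was called at 0.92 (adjusted p-value 5.4e-08), and Mbp (0.69), uncalled in control rats, was called higher, as were 11 of the 13 myelin genes and all 13 immediate early genes.

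Some genes called in control rats had values nearer 0 in exposed rats. Moap1 fell by 1.5 (SE 0.23) in control rats and was -0.06 (adjusted p-value 0.68) in exposed rats, Zfp580 was -1.45 (SE 0.26) and -0.17 (adjusted p-value 0.094), and C1ql1 was -0.70 (SE 0.1) and 0.02 (adjusted p-value 0.73). Hif3a (-1.59 and -0.49) and Marcksl1 (-1.55 and -0.55) were called in both. Among the rises, Cyp19a1 was 0.69 (SE 0.23) in control rats and 0.03 (adjusted p-value 0.8) in exposed rats. Igfbp5 was 0.58 (SE 0.13) and 0.11 (adjusted p-value 0.05). Trh, uncalled in control rats (-0.10, SE 0.21), fell by 1.13 in exposed rats. Oxt (-0.77, SE 0.2, adjusted p-value 0.00066) and Avp (-0.94, SE 0.28, adjusted p-value 0.0025), also uncalled in control rats, were called lower there. Of the 16 neuropeptide genes, 9 were called lower and 4 higher in exposed rats, beside 34.2% and 33.7% of all genes tested. The difference between control and exposed rats was not tested, and the numbers of libraries differ.

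**Figure D5:**
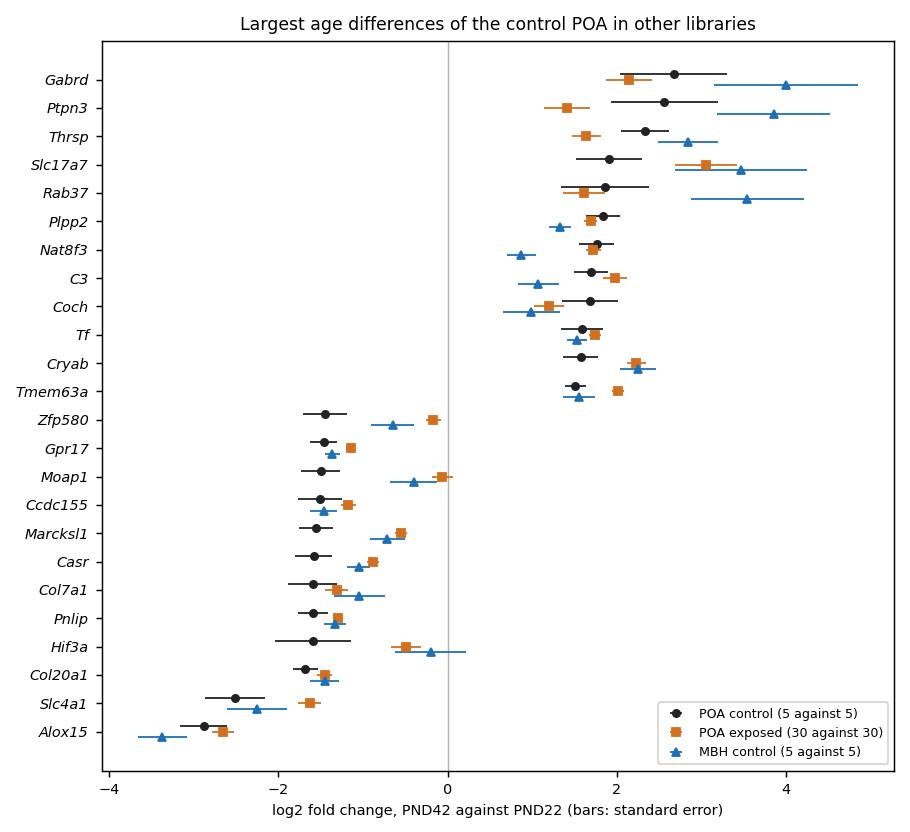
Log2 fold changes of PND42 against PND22 with SE bars for the 12 highest and 12 lowest genes of the control POA (black), in the POA of exposed rats (orange) and in the control MBH (blue). All 24 values of the control POA keep their sign in the other sets, where Moap1, Zfp580 and Hif3a lie between -0.65 and -0.06.

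In the MBH of control rats, most of which by their numbers gave a POA library as well, 2295 of 14861 genes were called (15.4%), 1208 higher (8.13%) and 1087 lower (7.31%). A test of the interaction of age and tissue over the 20 control libraries called 0 of 15015 genes with edgeR, while 1623 (10.8%) had an unadjusted p under 0.05 and DESeq2 called 56 (0.373%), with a more positive age difference in the POA for 11 of them and a more negative one for 45. Without PND22 replicate 4, edgeR called 6 genes, 1 more positive and 5 more negative in the POA, which included Oxt and Zic1. Oxt was at 2.28 to 13.6 CPM in the PND22 MBH libraries and at 67.5 to 152 CPM at PND42, a log2 fold change of 3.73 there beside -0.43 in the POA without replicate 4. Zic1 rose by 1.75 in the MBH, and its values there were 5.47 to 8 CPM and 13.2 to 31.4 CPM. Zic1 is a gene of the anterior hypothalamus, and Oxt is made in its paraventricular and supraoptic nuclei. The part of the dissection in these differences was not tested. Prkcd ranged from 10.4 to 333 CPM in the PND42 MBH libraries and from 7.96 to 15.4 CPM at PND22.

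The control POA at PND90 gives the later course of these genes, as levels only (mean ± SD, n = 5 at each age). Gpr17 went from 128 ± 37 CPM at PND22 and 46.4 ± 5.91 CPM at PND42 to 27.4 ± 1.93 CPM at PND90, and Enpp6 from 34.7 ± 10 and 16.4 ± 1.62 to 6.62 ± 1.9 CPM. The PND90 libraries of both genes lay below all PND42 libraries. Col4a1 was at 122 ± 11, 52.7 ± 3.83 and 38.1 ± 2.61 CPM, and Alox15 at 43 ± 17.5, 5.82 ± 1.85 and 1.51 ± 0.599 CPM, again in that order. Dnmt3a was at 47.5 ± 5.84, 23.5 ± 2.68 and 23.6 ± 4.25 CPM, with overlapping libraries at PND42 and PND90. Other genes turned back. Opalin was at 175 ± 30.5, 286 ± 48 and 138 ± 10.8 CPM, Msmo1 at 118 ± 10, 167 ± 8.12 and 129 ± 9.75 CPM, and Dlk1 at 56.6 ± 10.7, 38.3 ± 5.72 and 63.1 ± 6.29 CPM. The PND42 libraries stood apart from both other ages for Opalin and Msmo1. Gnrh1 was at 4.29 ± 2.57, 8.48 ± 1.22 and 15.9 ± 8.59 CPM, with PND90 libraries from 6.12 to 25.2 CPM that overlapped those of PND42.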

How the data were processed

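RNA-seq was measured in the POA of Sprague-Dawley rats, and the authors deposited raw read counts per gene, without normalization. Per the study's methods, reads were aligned with STAR and counted with featureCounts. The submitters' processing notes name bcl2fastq 2.20 and the rat genome Rnor_6.0. The strand setting and the handling of multimapping reads in the counting are not given in the sources used here, so values of near-identical genes (globins, RT1 genes, ribosomal protein genes) and of overlapping genes are uncertain. The deposited POA count table holds 32883 genes, 396 of them without a symbol. Where several identifiers share a symbol, the one with the highest mean was used.

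The 5 control POA libraries of PND42 were compared with the 5 of PND22 in R 4.3.3 with edgeR 4.0.16 (TMM factors, filterByExpr with a minimum count of 10, quasi-likelihood test, Benjamini-Hochberg threshold 0.05). The study used DESeq2, which was run as an alternative here (version 1.42.0). CPM were computed from library totals before TMM scaling. The SE of a log2 fold change was its absolute value divided by the square root of the F statistic. Scripts were tested on simulated counts. The members and gene lists were chosen with earlier results of these data known. Genes named were the 12 highest and 12 lowest that were called with and without PND22 replicate 4, carried a gene symbol, reached 1 log2 CPM on average and did not overlap between ages, then up to 3 called genes per list and defining list members that were not called. Further list members, genes whose call hung on 1 library and the gene families of the closing section were named after their values were seen.

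Libraries were grouped by the labels for tissue, age and treatment, and total counts lay between 12601314 and 16979710 per library. No pair of libraries held the same values. Correlations of log2(CPM + 1) over genes were 0.9827 to 0.9932 within PND22, 0.9866 to 0.9919 within PND42 and 0.9748 to 0.9854 between the ages. The labels carry a number that was read as the rat number. A POA and an MBH control library of one age that share it were taken to come from the same animal. Over 9 such pairs the deviations from the group means correlated at -0.25 to 0.14, and 2 were over 0.1. Because these pairs were taken to come from the same animals, the interaction of age and tissue was also fitted with the rat as a replicate block, which called 0 genes. Other alternatives were other scalings, no filter, a robust prior, larger fits over more libraries, a replicate block and leaving out each library in turn. Promoter sequences came from RefSeq (GRCr8), which is another build than that of the counts, and served only to print sequences and to count letters. Some genes of the lists are counted in the totals and not reported by name here.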

Additional observations from a re-analysis of the deposited data

Results flagged for a closer look

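Of 316 groups of 5 libraries, one for each named gene and age, 27 held a library whose gap to the nearest of the other 4 was more than 0.71 of the whole range of the group. Chance gives such a gap in about 5% of groups, but many of these genes were named for their region or after their values were seen, so the number of such groups cannot be read against that share.

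PND22 replicate 4 was high for 6 genes and low for 1. It held 1400 CPM of Pmch against 0.387 to 23.8 CPM in the other PND22 libraries, 98.9 CPM of Hdc against 1.87 to 4.19, 34.5 CPM of Hcrt against 0.258 to 0.991, 30 CPM of Pomc against 0.593 to 1.3, 11 CPM of Foxb1 against 1.74 to 3.97 and 73.6 CPM of Plagl1 against 21.4 to 33.5. Zic1 was at 12.8 CPM there against 56.3 to 69.9 CPM.

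PND42 replicate 3 was high for 7 genes. Prkcd was at 162 CPM against 30.3 to 42.6 CPM in the other PND42 libraries, Ptpn3 at 143 against 12.6 to 40.2, Ramp3 at 51.4 against 7.42 to 18.5, Gabrd at 26.1 against 2.73 to 5.01 and Rab37 at 9.54 against 1.3 to 2.48. Pmch was at 43.2 CPM there against 1.92 to 8.18, and Hsd11b1 at 22.8 against 17.1 to 18.2.

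PND22 replicate 2 was high for 6 genes and low for 1. Tnr was at 253 CPM against 136 to 162 in the other PND22 libraries, Pdgfra at 218 against 142 to 160, Gpr17 at 193 against 104 to 126, Dnmt3a at 57.7 against 43.7 to 47.1, Flt1 at 53.5 against 37 to 40.5 and Mki67 at 7.7 against 2.97 to 4.21. Kcnab1 was at 31.7 CPM against 37.2 to 39.

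The other such values were spread over 4 libraries. In PND42 replicate 4, Col4a2 was high at 54.2 CPM (38.6 to 41.6 in the others) and Ncan low at 91.1 CPM (104 to 105). In PND42 replicate 5, Mbp was high at 11100 CPM (8310 to 8870) and Tet2 low at 22.6 CPM (26.5 to 28). Hdc was high in PND42 replicate 1 at 3.91 CPM (1.91 to 2.48), and Fdft1 was low in PND22 replicate 1 at 121 CPM (154 to 159). Among the falls, Col4a2, Gpr17 and Dnmt3a had no overlap between the ages with these libraries included.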

How the results depend on the processing

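The count of 3852 called genes became 3861 with RLE factors, 3870 with library totals, 3456 without the filter, 3825 with a robust prior, 4323 with DESeq2, 3638 with 3 ages in one fit and 2965 with all POA libraries in one fit. With the replicate number as a replicate block it was 3622, although the number pairs no animals here: same-numbered libraries correlated at -0.09 to 0.10, and 1 of 5 correlated best with its own number. Leaving out 1 library gave 3080 to 3804 genes, leaving out a further one beside PND22 replicate 4 gave 2762 to 3409 beside 3804 (4220 with DESeq2), and leaving out PND22 replicate 4 and PND42 replicate 3 gave 3378. Exposed rats gave 8521 genes with KTZ alone, 8632 with DES alone and 10284 with DESeq2, beside 10467. The interaction of age and tissue gave 0 genes, also with the rat as a replicate block, 6 without PND22 replicate 4 and 56 with DESeq2, and the cause was not tested. Among the 158 named genes no called difference changed sign under the alternatives run, and 100 kept their side of the threshold under every alternative. Calls that rest on 1 library stand beside their values in the report, whereas calls lost under other fits do not. With all POA libraries in one edgeR fit, the calls lost included Ermn (adjusted p-value 0.062), Gfap (0.12), Igfbp5 (0.12), Csf1r (0.14), Opalin (0.15) and Slc17a7 (0.17). Also lost there were Aldh1l1 (0.22), Grin2d (0.22), Magel2 (0.22), Dlk1 (0.24) and Ncan (0.37). The values of tuberal genes moved most with PND22 replicate 4 and those of thalamic genes with PND42 replicate 3. Levels under 3 counts per library could not be told from 0.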

Other observations

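Gene families gathered by the start of their symbols, chosen after their values were seen, give levels that the lists above do not hold. They are read against 13.5% of all genes called higher and 13.3% called lower at PND42. Of 15 tested genes of the rat major histocompatibility complex (RT1), which present peptides to T cells, 9 were called higher and none lower, with a median log2 fold change of 0.74, and 10 were called higher without PND22 replicate 4. RT1-A2, a class I gene, was at 4.65, 5.03, 5.67, 7.22 and 5.03 CPM at PND22 and at 13.9, 12.6, 12.7, 20.5 and 12.1 CPM at PND42 (1.38, SE 0.17, adjusted p-value 0.00017 in edgeR's quasi-likelihood test). RT1-CE4 went from 4.65, 4.58, 4.68, 3.41 and 3.61 CPM to 10.8, 10.2, 9.97, 8.37 and 8.93 CPM (1.21, SE 0.13, adjusted p-value 8e-05). The ages did not overlap for either gene. B2m, the light chain of class I molecules, rose by 0.24 (SE 0.06), and Psmb9 and Psmb8, subunits of the immunoproteasome, by 1.06 (SE 0.21) and 1.18 (SE 0.32), while Tap1, the peptide transporter, was not called (0.34, SE 0.19). In exposed rats all 15 RT1 genes were called higher, where 33.7% of all genes tested were called higher. Reads of RT1 genes can be split between near-identical copies, so single members are uncertain.

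Of 75 genes of cytosolic ribosomal proteins, 56 were called higher and none lower, with a median of 0.52. Rps23 went from a mean of 150 CPM to 280 CPM (0.91, SE 0.05) and Rpl3 from 385 to 564 CPM (0.56, SE 0.05). Smaller rises were seen for the energy and protein turnover families, with 20 of 44 Nduf genes of respiratory complex I (median 0.19), 12 of 15 Atp5 genes of ATP synthase (median 0.33), 23 of 38 proteasome genes (median 0.20) and 28 of 71 genes of the mitochondrial ribosome (median 0.20) called higher and at most 1 of each called lower. The opposite direction prevailed among 37 collagen genes, with 16 lower, none higher and a median of -0.60, among 10 laminin genes, with 4 lower and none higher, and among 47 protocadherin genes, with 11 lower and none higher. Of the laminins, Lamc1 fell by 0.54 (SE 0.08) and Lama4 by 0.69 (SE 0.12), and Nid1, which links laminin to collagen IV, fell by 0.79 (SE 0.15). Among 241 zinc finger genes named Zfp, 10 were called higher and 37 lower, with a median of -0.07. The share called lower was near the 13.3% of all genes tested and gives no result about this family. Without PND22 replicate 4 the calls were 54 higher and 1 lower for ribosomal proteins and 1 higher and 12 lower for collagens, and 2 laminin and 12 protocadherin genes were called lower.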
